A study of Arabidopsis thaliana with 12 samples.

Results

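Transcript levels were compared between Arabidopsis thaliana wild-type seedlings given the synthetic glucocorticoid dexamethasone (DEX) and mock-treated ones, in plants that carry no glucocorticoid-inducible transgene. The comparison uses 6 of the 12 arrays of the series, namely the 3 arrays of DEX-treated and the 3 of mock-treated Columbia wild type (Col-0), chosen by their labels alone. Seedlings 9 days old, raised on plates of MS medium, were covered with liquid MS medium holding 5 µM DEX, or no DEX for the mock, and shaken for 4 h. The other 6 arrays are of seedlings labelled 35S:LOB-GR, again 3 with DEX and 3 mock. They express LATERAL ORGAN BOUNDARIES (LOB) fused to the glucocorticoid receptor's hormone-binding domain from the constitutive 35S promoter, and they are used here only where a Col response is set against theirs. All 4 groups were flooded and shaken, so no group shows untouched seedlings. Arrays are labelled as biological replicates, and nothing in the labels says whether they came from separate plates or days.

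Plants have no homologue of the animal glucocorticoid receptor. In a GR fusion, the steroid frees the fused transcription factor from a chaperone complex in the cytosol and lets it enter the nucleus, where it acts on its targets. Wild type given the same steroid is therefore the usual control for whatever DEX, and the handling that goes with it, does without the fusion. The genes a foreign compound might be looked for in plants include glutathione transferases, UDP-glycosyltransferases and cytochromes P450, which modify and store such compounds, and the heat shock proteins, which are chaperones made under protein stress.

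At the threshold used, DEX-treated Col differed from mock in a limited set of probe sets, mostly by lower levels and mostly by small amounts. Of 22746 probe sets, 407 (1.79%) were called at an adjusted p under 0.05 (limma, Benjamini-Hochberg over all probe sets). Of these, 79 (0.347% of all) were higher and 328 (1.44%) were lower in DEX. Before adjustment, 3752 probe sets had a limma p under 0.05, so the called set does not bound how many genes differed. The median absolute log2 difference of the called probe sets was 0.54, and 9 of them reached a 2-fold difference, 4 higher and 5 lower. When each array's median was first subtracted, 325 probe sets were called, and the share of calls that were higher was 36.6%, against 19.4% as deposited. In all 407 the 3 DEX arrays lay wholly above or wholly below the 3 mock arrays, which was also so for 21% of all probe sets. The annotation gives 1 gene for 230 of the called probe sets, several genes for 13 and none for 164; only the first kind is named below.

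The number of calls depended on which array was left out. Each refit has 1 array fewer, which by itself lowers the power to call. On the first principal component, which held 40.6% of the variance, the DEX arrays lay at 13.0, 13.8 and 11.8 and the mock arrays at -14.5, -19.3 and -4.83, so that mock replicate 3 was the mock array nearest to DEX. Without mock replicate 3 the number of calls was 540. It was 240 without DEX replicate 1, 24 without DEX replicate 2, 181 without DEX replicate 3, 47 without mock replicate 1 and 70 without mock replicate 2. In all 6 refits 20 of the 407 probe sets stayed called, 1 higher and 19 lower. With all 12 arrays setting the spread, 13 of the 407 stayed called.

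**Figure D1:**
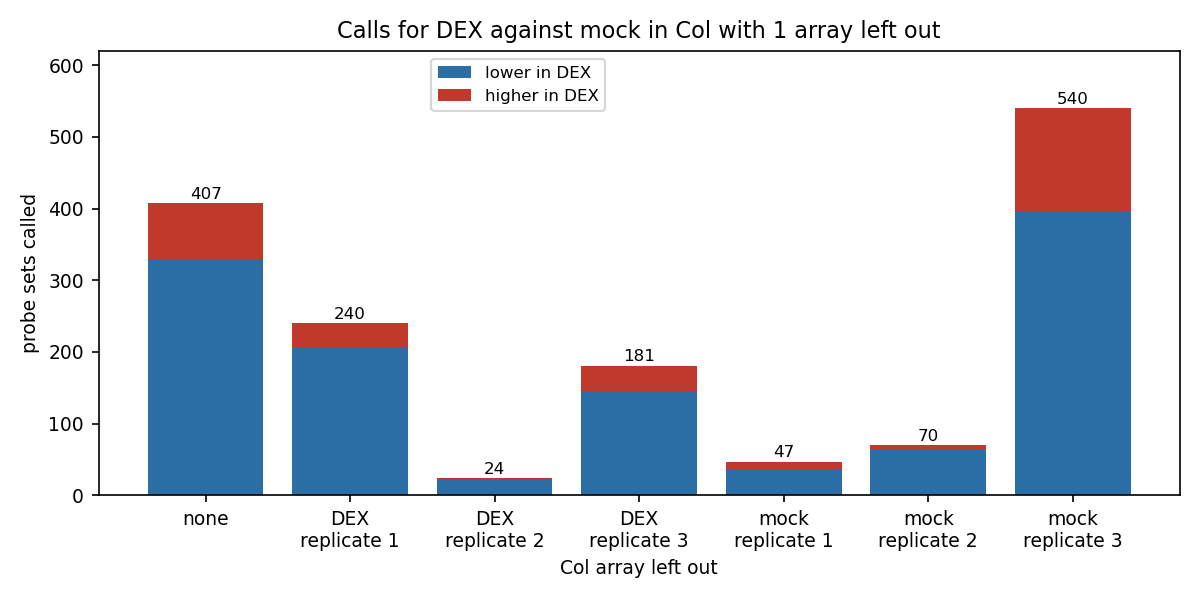
Number of probe sets called for DEX against mock in Col (y axis) with all 6 arrays and with each array left out in turn (x axis); blue is lower in DEX, red higher. The total is 407 with all arrays, 24 without DEX replicate 2 and 540 without mock replicate 3, and lower calls outnumber higher ones in every bar.

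The labelled tissue was checked by its markers. Of 5 leaf markers, 1 was measured. This was RCA, the chloroplast enzyme that activates Rubisco, which stood at 13.76, 13.77 and 13.82 in DEX and 13.86, 13.76 and 13.82 in mock (log2 values throughout). Of 6 root markers, 3 were measured and none was called: their mean level was 7.37 to 7.51 in DEX arrays and 7.43 to 7.72 in mock arrays. The array's own control probe sets moved with the treatment for a pair of transcripts. For actin, the signal of the 3' probe set exceeded that of the 5' probe set by 3.14 ± 0.11 in DEX and 3.54 ± 0.07 in mock (SD, n = 3 each; two-sided exact permutation p = 0.10, the smallest that 3 against 3 can give). For ubiquitin the same difference was 1.17 ± 0.07 in DEX and 1.26 ± 0.02 in mock (exact permutation p = 0.10), and for GAPDH it was -0.23 ± 0.11 in DEX and -0.19 ± 0.20 in mock (exact permutation p = 0.6). The 25S rRNA control probe set read 4.83, 5.32 and 5.07 in DEX and 5.74, 5.30 and 4.60 in mock (exact permutation p = 0.8). The 5S rRNA control was at 3.25 ± 0.06 in DEX and 3.31 ± 0.07 in mock (exact permutation p = 0.4). The part of these control differences in the results below was not tested.

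Among the rises of single-gene probe sets, the largest was that of COR27, a cold- and light-regulated gene whose protein represses genes of the circadian clock. It stood at 6.47, 6.49 and 6.54 in the DEX arrays, against 4.93, 5.48 and 5.37 in the mock arrays. The DEX arrays were tightly grouped and all lay far above the highest mock array. The difference was 1.24 ± 0.13 on the log2 scale (SE), a 2.36-fold rise (limma adjusted p = 0.0021), and it was the single rise that stayed called with any 1 array left out. AT4G33980, the close relative of COR27 known as COR28, had 5.20, 5.59 and 5.46 in DEX and 4.88, 4.90 and 4.85 in mock. Its rise of 0.54 ± 0.10 (adjusted p = 0.0274) stayed called in 1 of the 6 refits.

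The other cold-regulated genes did not follow this pair. Of 20 listed, 7 were measured: 2 rose, 1 fell and 4 were not called, with a median difference of -0.05. For all 13356 genes measured, the median was 0.01 and 1.71% were called: 0.27% rose and 1.45% fell. The one that fell was LTI30, a dehydrin that protects membranes in cold and drought, with 6.04, 6.39 and 6.40 in DEX and 7.06, 7.35 and 6.88 in mock (-0.82 ± 0.13, adjusted p = 0.0159). STZ, a zinc finger repressor induced by many stresses, had a larger difference of -0.98 ± 0.25 but was not called (adjusted p = 0.0733): it read 5.52, 5.25 and 5.29 in DEX and a wide 6.66, 5.53 and 6.80 in mock. COR15A, COR15B and COR47 were not called. AT1G54410, a small dehydrin that lay outside the list, fell by 0.89 ± 0.14 (adjusted p = 0.0135), with 9.81, 10.18 and 10.39 in DEX and 10.94, 11.20 and 10.92 in mock.

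Heat shock proteins gave 4 of the called rises, in small heat shock and HSP70 lists that were added after values were seen. AT5G51440, a small heat shock protein of mitochondria, was at 8.63, 8.21 and 7.84 in DEX and 6.88, 7.04 and 7.56 in mock. The groups did not overlap, but the lowest DEX array, replicate 3, came close to the highest mock array, also replicate 3. The rise was 1.06 ± 0.19, or 2.09-fold (adjusted p = 0.0219). AT2G19310, another small heat shock protein, was brighter, at 10.14, 10.05 and 9.75 in DEX and 9.09, 9.20 and 9.44 in mock (0.73 ± 0.12, adjusted p = 0.0171). The small heat shock family as a whole did not move with them: 10 of 18 were measured, 2 rose, none fell, and the median difference was 0.02. Over all genes measured, 0.27% rose and 1.45% fell.

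In the HSP70 family, the large ATP-driven chaperones, 4 of 16 genes were measured. Of these, 2 rose and 1 fell, against 0.27% and 1.45% of all genes. AT3G09440, a cytosolic member and among the brighter genes named here, was at 11.61, 11.64 and 11.67 in DEX, against 11.21, 11.18 and 11.26 in mock. Both groups were tight, and the rise was 0.42 ± 0.08 (adjusted p = 0.0274). Hsp70-2, also cytosolic, was at 8.36, 8.32 and 8.36 in DEX and 8.06, 7.70 and 7.89 in mock (0.46 ± 0.10, adjusted p = 0.0418). With 1 array left out, AT3G09440 stayed called in 1 of the 6 refits and Hsp70-2 in 0. AT4G16660, an HSP70 relative of the endoplasmic reticulum, fell by 0.50 ± 0.10 (adjusted p = 0.0301). AT1G56300, a DnaJ-type co-chaperone noticed after its values were seen, rose by 0.48 ± 0.10 (adjusted p = 0.0382). Without DEX replicate 2, mock replicate 1 or mock replicate 2, no small heat shock protein was called, and without DEX replicate 1 there was 1.

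Of the auxin response genes, 8 of 19 were measured, and 1 was called. That gene was GH3.3, which encodes an enzyme joining the hormone auxin to amino acids and is itself induced by auxin. Its levels were 8.99, 9.13 and 9.39 in DEX and 8.56, 7.81 and 8.32 in mock, so every DEX array lay above every mock array, and mock replicate 2 was the lowest of all. The rise was 0.94 ± 0.17, or 1.91-fold (adjusted p = 0.0209), and its call was kept in 3 of the 6 refits. WES1, a GH3 enzyme of the same kind, was at 0.41 ± 0.12 (adjusted p = 0.119) and IAA29, an auxin-induced repressor, at 0.30 ± 0.13 (adjusted p = 0.277), and neither was called. The median of the list was 0.21. EXPA8, an expansin that loosens cell walls, had a difference of 0.67 ± 0.16 that missed the threshold (adjusted p = 0.0597), and none of the 18 measured expansins was called.

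The remaining rises named by size came from unrelated families. AT5G25450, a subunit of the mitochondrial cytochrome bc1 complex, rose by 0.73 ± 0.13 (adjusted p = 0.0210). AT5G02540, a short-chain dehydrogenase, rose by 0.71 ± 0.16 (adjusted p = 0.0443), and MGL, methionine gamma-lyase, which splits methionine, by 0.64 ± 0.12 (adjusted p = 0.0214). The protein kinase gene AT3G59350, AT5G62960, the RING finger gene AT5G47610, the leucine-rich repeat gene AT5G66330, the F-box gene AT3G26922 and AT2G38840 rose by between 0.49 and 0.59. A second probe set for AT2G38840 gave 0.05 (adjusted p = 0.826), so the probe sets of that gene disagreed.

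**Figure D2:**
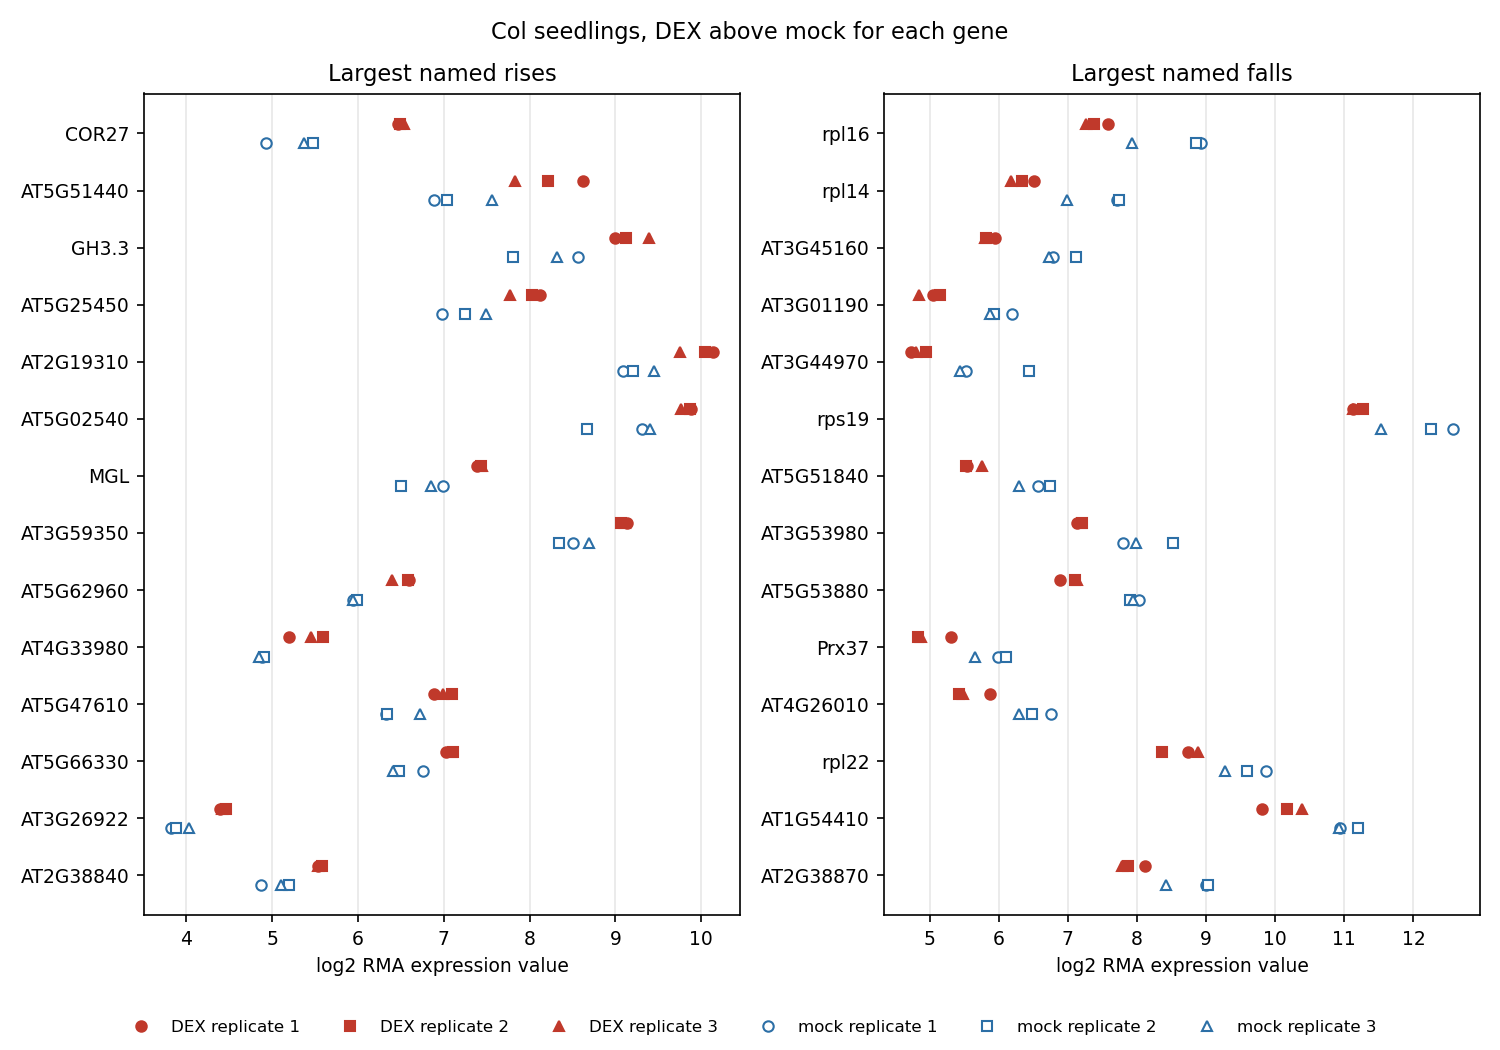
Log2 RMA values (x axis) of the 14 largest named rises (left) and the 14 largest named falls (right), with the 3 DEX arrays as filled red symbols above the 3 mock arrays as open blue symbols for each gene, and 1 symbol shape per replicate number. Groups do not overlap in any of the 28 genes, which the naming rule required, and in rpl16, rpl14 and rps19 mock replicate 3 lies nearest to the DEX arrays.

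The largest named falls were in genes of the plastid's own genome. Plastids keep a small genome that encodes part of the photosynthetic complexes, of the plastid ribosome and of the plastid RNA polymerase. Genes of 69 plastid proteins were measured, of 85 annotated; 8 fell and none rose (11.6% called, against 1.67% of nuclear genes), and the median difference was -0.20. In whole seedlings, fewer plastids or cells and less RNA in each of them cannot be told apart. Whether the labelling of plastid RNA differed between the arrays was not tested.

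The plastid groups, added after values were seen, are described by their counts and medians. Of 15 plastid ribosomal protein genes measured, 5 fell, 14 had differences below 0, and their median was -0.50. Of 20 photosystem genes none was called, 9 lay above 0 and 11 below, and their median was -0.03. Of 4 RNA polymerase genes 1 fell, with a median of -0.48, and of 8 other plastid genes 2 fell, with all 8 below 0 and a median of -0.37. The medians were -0.24 for the 6 cytochrome b6f genes, -0.13 for the 10 NADH dehydrogenase-like genes and -0.11 for the 6 ATP synthase genes, with none called in these 3 groups.

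The 5 called ribosomal protein genes are next to one another in the plastid genome, in the order rpl14, rpl16, rps3, rpl22 and rps19. The gene rpl16, for a protein of the large ribosomal subunit, stood at 7.58, 7.38 and 7.26 in DEX and 8.92, 8.86 and 7.94 in mock. Mock replicate 3 was well below the other mock arrays, though still above every DEX array. The fall was 1.16 ± 0.21, to 0.447 times the mock level (-1.16 on the log2 scale, adjusted p = 0.0212). For rpl14, the values were 6.51, 6.34 and 6.17 in DEX and 7.71, 7.74 and 6.99 in mock (-1.14 ± 0.17, adjusted p = 0.0135). The much brighter rps19, for a small-subunit protein, had 11.12, 11.26 and 11.12 in DEX and 12.57, 12.26 and 11.53 in mock (-0.95 ± 0.20, adjusted p = 0.0352). In both genes mock replicate 3 was again the lowest mock array. The differences of rpl22 and rps3 were -0.91 ± 0.16 (adjusted p = 0.0197) and -0.87 ± 0.18 (adjusted p = 0.0346).

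Beside them in the same stretch, rpl36 and rpoA, the gene of the polymerase alpha subunit, had differences of similar size that were not called. For rpoA, DEX arrays read 8.53, 8.52 and 8.78 and mock arrays 9.66, 10.21 and 8.76, so that mock replicate 3 lay within the DEX range (-0.93 ± 0.26, adjusted p = 0.0965). For rpl36 the difference was -0.87 ± 0.25 (adjusted p = 0.104). Elsewhere in the plastid genome, calls were made for ycf3, an assembly factor of photosystem I (-0.87 ± 0.14, adjusted p = 0.0171), for rpoC1, a polymerase subunit (-0.51 ± 0.12, adjusted p = 0.0475), and for accD, a subunit of the enzyme that starts fatty acid synthesis (-0.51 ± 0.11, adjusted p = 0.0377). Because neighbouring plastid genes are often transcribed together, the 5 adjacent calls are not 5 independent observations.

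The number of plastid genes called lower, 8 with all arrays, was 18 without mock replicate 3, 5 without DEX replicate 1, 4 without DEX replicate 3, and 0 without DEX replicate 2, mock replicate 1 or mock replicate 2 (limma, adjusted p under 0.05). Mean levels of the 15 ribosomal protein genes were 8.77, 8.59 and 8.59 in the DEX arrays and 9.46, 9.39 and 8.89 in the mock arrays, so mock replicate 3 was the mock array nearest to DEX here as well.

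**Figure D3:**
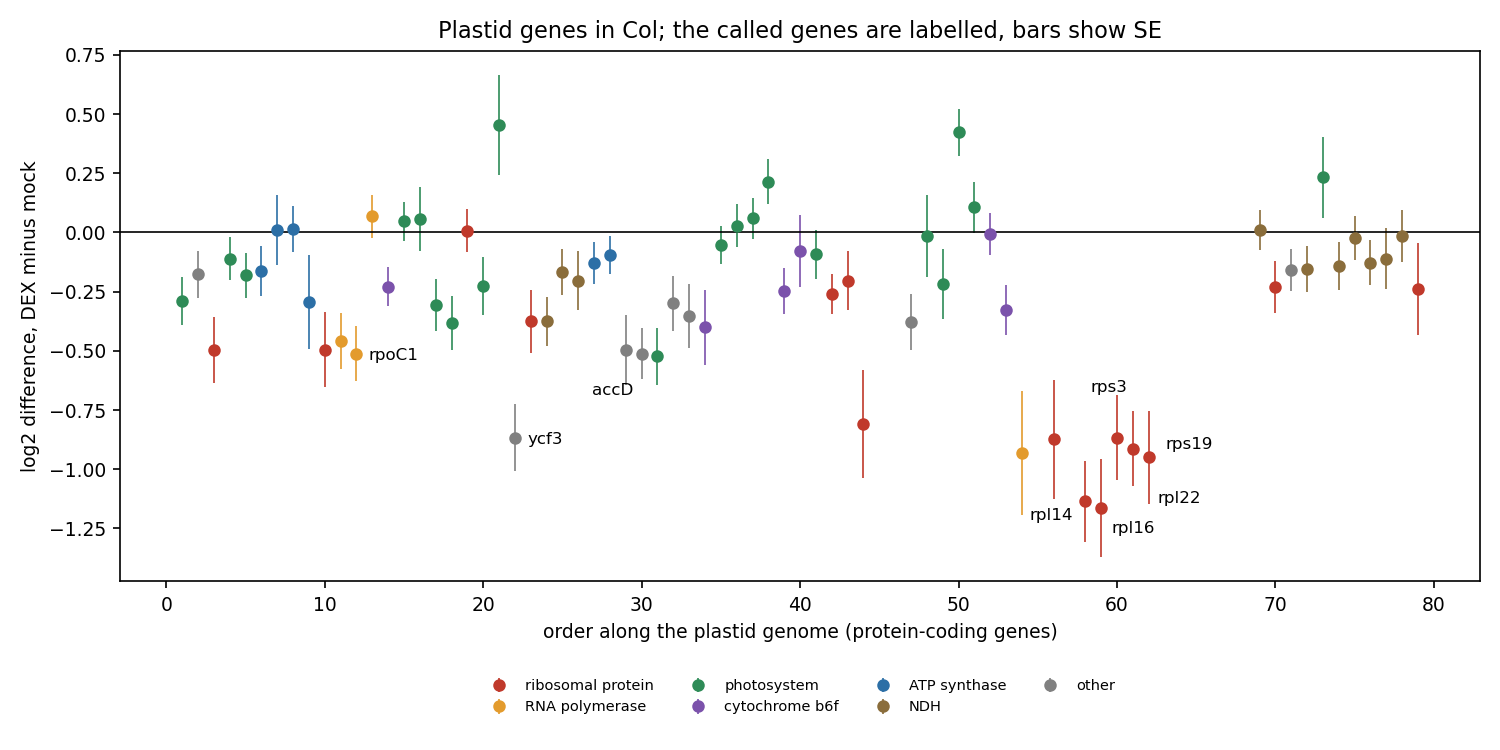
Log2 difference, DEX minus mock in Col, of the measured plastid genes (y axis, bars show the SE of the fit) in their order along the plastid genome (x axis, rank among protein-coding genes), coloured by function. The 5 called ribosomal protein genes rpl14 to rps19 sit side by side between -0.87 and -1.16, while photosystem genes in green scatter on both sides of 0.

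A second group of falls was in class III peroxidases, secreted enzymes that use hydrogen peroxide to cross-link or loosen cell walls and many of which are made in roots. Of 73 such genes, 55 were measured; 6 fell and none rose (10.9% lower, against 1.45% of all genes), while the median of the group was -0.09. The family was picked after values were seen. AT3G01190 was at 5.05, 5.14 and 4.84 in DEX and 6.20, 5.94 and 5.88 in mock. The groups lay well apart, and the fall of 0.99 ± 0.11 (-0.99 on the log2 scale, adjusted p = 0.0031) stayed called in all 6 refits. AT4G26010 had 5.88, 5.42 and 5.49 in DEX and 6.76, 6.48 and 6.29 in mock (-0.91 ± 0.14, adjusted p = 0.0135). Prx37 lay between 4.83 and 5.31 in DEX and between 5.66 and 6.11 in mock (-0.92 ± 0.14, adjusted p = 0.0139).

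The other peroxidases called were AT4G30170 at -0.73, AT5G58390 at -0.59 and AT5G66390 at -0.53. The count of peroxidases called lower was 1 without DEX replicate 2 or mock replicate 1, 2 without mock replicate 2, 4 without DEX replicate 3, 6 without DEX replicate 1 and 7 without mock replicate 3. Root markers gave smaller differences beside them: PYK10, an abundant root beta-glucosidase, was at -0.10 ± 0.09, while the expansins of root hairs, EXPA7 and EXPA18, were at -0.31 ± 0.13 and -0.10 ± 0.09. None of these 3 was called.

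A neighbouring trio of jacalin-type lectin genes, carbohydrate-binding proteins, was also noticed after its values were seen. AT1G52060 was at 5.43, 5.42 and 5.40 in DEX and 6.39, 6.08 and 6.09 in mock (-0.77 ± 0.10, adjusted p = 0.0068), and its call was kept in all 6 refits. AT1G52070 and AT1G52050 fell by 0.79 ± 0.13 and 0.48 ± 0.10 on the log2 scale (adjusted p = 0.0189 and 0.0429). These genes are similar in sequence, and whether their probe sets read each other's transcripts was not tested.

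The kinesins, motor proteins that move along microtubules and in plants drive spindle and cell plate formation, were a further group of falls, also picked after values were seen. Of 59 kinesin genes 40 were measured. Of these, 8 fell and none rose (20.0% lower, against 1.45% of all genes). Below 0 were 34 of the 40 differences, against 6345 of the 13356 over all genes, and the kinesin median was -0.21. All 4 genes of the kinesin-5 class, which push the poles of the mitotic spindle apart, were among the 8. AT2G36200 of that class was at 4.95, 4.86 and 4.93 in DEX, against 5.76, 5.84 and 5.51 in mock. The DEX arrays lay close to one another and below every mock array; the fall was 0.79 ± 0.10 (-0.79, adjusted p = 0.0068), kept in all 6 refits. AT2G37420 had 3.51, 3.51 and 3.50 in DEX and 4.28, 4.08 and 3.87 in mock (-0.57 ± 0.10, adjusted p = 0.0236), with DEX values below 4.13, the 25th percentile of all probe sets' mean levels.

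The other kinesin-5 genes, AT2G28620 and AT3G45850, were at -0.44 ± 0.10 and -0.43 ± 0.09 (adjusted p = 0.0424 and 0.0443). AT2G28620 was dim as well, at 4.08, 3.93 and 4.07 in DEX, all below the 25th percentile of 4.13. Calls were also made for AT5G60930 (-0.58), AT3G12020 (-0.55), AT3G10310 (-0.48) and KICP-02 (-0.43). Mean levels of the 40 kinesins were 4.74, 4.78 and 4.84 in the DEX arrays and 5.01, 5.09 and 4.95 in the mock arrays. These groups did not overlap, but the family was picked after its values in the same arrays were seen. The count called lower was 1 without DEX replicate 2, mock replicate 1 or mock replicate 2, 2 without DEX replicate 1, 3 without DEX replicate 3 and 5 without mock replicate 3; it was 4 with array medians subtracted and 5 after a new quantile normalization. Aurora kinases AUR1 and AUR2, which act in mitosis, were the measured members of a list of 14 mitosis and cytokinesis genes. They were at -0.22 ± 0.11 and -0.07 ± 0.12, and neither was called.

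Other falls named by size had no family in common. AT3G45160 was at 5.94, 5.81 and 5.80 in DEX and 6.79, 7.12 and 6.72 in mock (-1.03 ± 0.11, adjusted p = 0.0027), and AT5G53880 at 6.89, 7.10 and 7.14 in DEX and 8.04, 7.90 and 7.94 in mock (-0.92 ± 0.09, adjusted p = 0.0021). Both stayed called in all 6 refits, as did AT5G51840 (-0.93 ± 0.12, adjusted p = 0.0068). AT3G44970, a cytochrome P450 gene, was at 4.74, 4.95 and 4.80 in DEX and at a wider 5.53, 6.43 and 5.44 in mock (-0.97 ± 0.20, adjusted p = 0.0366). AT3G53980, of the lipid transfer protein type, was at -0.93 ± 0.15 and AT2G38870, of the potato type I protease inhibitors, at -0.89 ± 0.15 (adjusted p = 0.0163 and 0.0189). NRPA1, the largest subunit of RNA polymerase I, which makes ribosomal RNA, was singled out after its values were seen: it stood at 7.13, 7.08 and 7.05 in DEX and 7.56, 7.67 and 7.52 in mock (-0.50 ± 0.08, adjusted p = 0.0185).

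The measured genes of the lists for foreign-compound metabolism gave no called rise. Of 49 UDP-glycosyltransferases found by family name, 43 were measured and none was called, with differences from -0.42 to 0.21. UGT84A3, a UDP-glycosyltransferase that this list missed, was called lower in Col, at -0.47. Of 41 glutathione transferases 13 were measured and none was called; 10 of the 13 lay below 0, the median was -0.19, and the highest was 0.14. Their mean level was 5.54 to 5.55 in DEX arrays and 5.67 to 5.73 in mock arrays. Of 226 cytochrome P450 genes found by family name, only 18 were measured under such a name, so most of the family is not covered by this count, and AT3G44970, named above by locus, lies outside it. The call among the 18 was for CYP71B26, which fell: it was at 8.35, 8.17 and 7.92 in DEX and 8.79, 8.88 and 8.63 in mock (-0.62 ± 0.12, adjusted p = 0.0249). At the simulated log2 size of 0.5 the fit called 44% of changed probe sets, and 96% at a size of 1, so smaller inductions could have been missed. For hypoxia genes 5 of 20 were measured, none of them called, with a median of 0.00.

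Several hormone and clock lists were scarcely represented among named probe sets. The clock list had 1 measured gene of 27, GI, a clock component, at -0.03. For brassinosteroids, the plant's own steroid hormones, 2 of 18 genes were measured: BRL1, a receptor, at 0.05 and BAT1, which inactivates the hormone, at -0.02, neither called. PDF1.2, a jasmonate-responsive defensin, was at -0.31 and EIN3, an ethylene-pathway transcription factor, at 0.03, and ARR15 and RR16, cytokinin-induced response regulators, were not called. No gene of the abscisic acid, salicylic acid, touch, flower and seed lists was found among the single-gene probe sets, so the response of these lists was not measured.

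**Figure D4:**
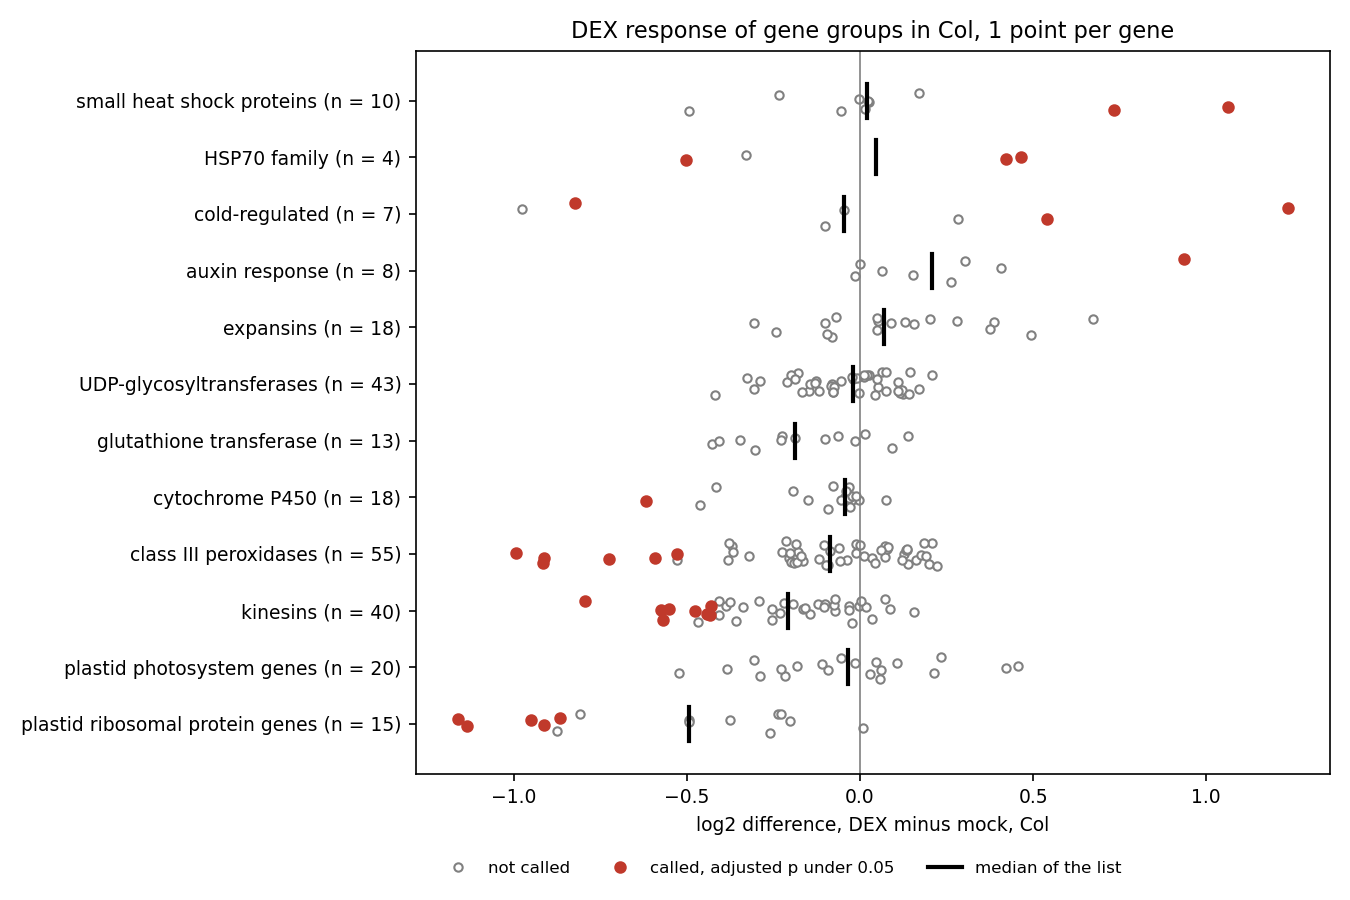
Log2 difference, DEX minus mock in Col (x axis), of each measured gene in 12 groups (rows, n in brackets), with called genes in red, others open, and the median of each group as a black bar. Kinesins and plastid ribosomal protein genes are shifted to the left as groups, at medians of -0.21 and -0.50, while in the heat shock, cold and peroxidase groups a few called genes stand away from medians between -0.09 and 0.05.

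The response was then set beside that of 35S:LOB-GR, where the same steroid also activates the fusion; that comparison shares no array with the Col one. In 35S:LOB-GR, 1500 of the probe sets (6.59%) were called. Both genotypes had 57 calls in common, which is 14% of the Col calls and 3.80% of the 35S:LOB-GR calls. Of these, 44 went the same way in both, 6 higher and 38 lower; 10 were higher in Col and lower in 35S:LOB-GR, and 3 were the reverse. LTI30 was among those lower in both, at -0.88 in 35S:LOB-GR and -0.82 in Col, and AT5G62960 among those higher in both, at 0.63 and 0.57. Across the 79 Col rises, the median response in 35S:LOB-GR was -0.10, and across the 328 Col falls it was -0.14.

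Several Col rises differed between the genotypes by a test of the difference itself, for which 1085 probe sets (4.77%) were called. COR27 in 35S:LOB-GR read 7.12, 7.02 and 6.72 with DEX and 7.05, 7.02 and 7.09 without, all above every Col array. Its response there was -0.10, against 1.24 in Col, a difference of -1.34 ± 0.18 (adjusted p = 0.0005). GH3.3 moved in opposite directions: in 35S:LOB-GR it lay between 5.60 and 6.22 with DEX and between 6.80 and 7.93 in mock, a fall (-1.53, adjusted p = 0.0075), against the rise of 0.94 in Col, and the difference was -2.47 (adjusted p = 0.0007). AT5G47610 rose in both, by 1.65 in 35S:LOB-GR and 0.53 in Col. AT3G09440 was at -0.31 in 35S:LOB-GR, where it was not called, and the difference from Col was -0.73 (adjusted p = 0.0060).

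Among the falls described above, the responses differed between the genotypes for NRPA1 by 0.63 (adjusted p = 0.0036), for rpl14 by 0.96 (adjusted p = 0.0450) and for AT2G36200 by 0.59 (adjusted p = 0.0480). The response in 35S:LOB-GR was 0.14 for NRPA1, and rpl14 and AT2G36200 were at -0.18 and -0.20 there, with none of the 3 called. The Col arrays enter both the Col response and this difference, so the number of probe sets called in both is not given as a result. None of the 69 plastid genes was called lower in 35S:LOB-GR, and rpl16 there was at -0.40 (adjusted p = 0.27), but for rpl16 the difference between the genotypes missed the threshold (0.76, adjusted p = 0.23). For the peroxidase AT3G01190 the response was -0.12 in 35S:LOB-GR, and the difference of 0.87 from Col was likewise not called (adjusted p = 0.18).

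**Figure D5:**
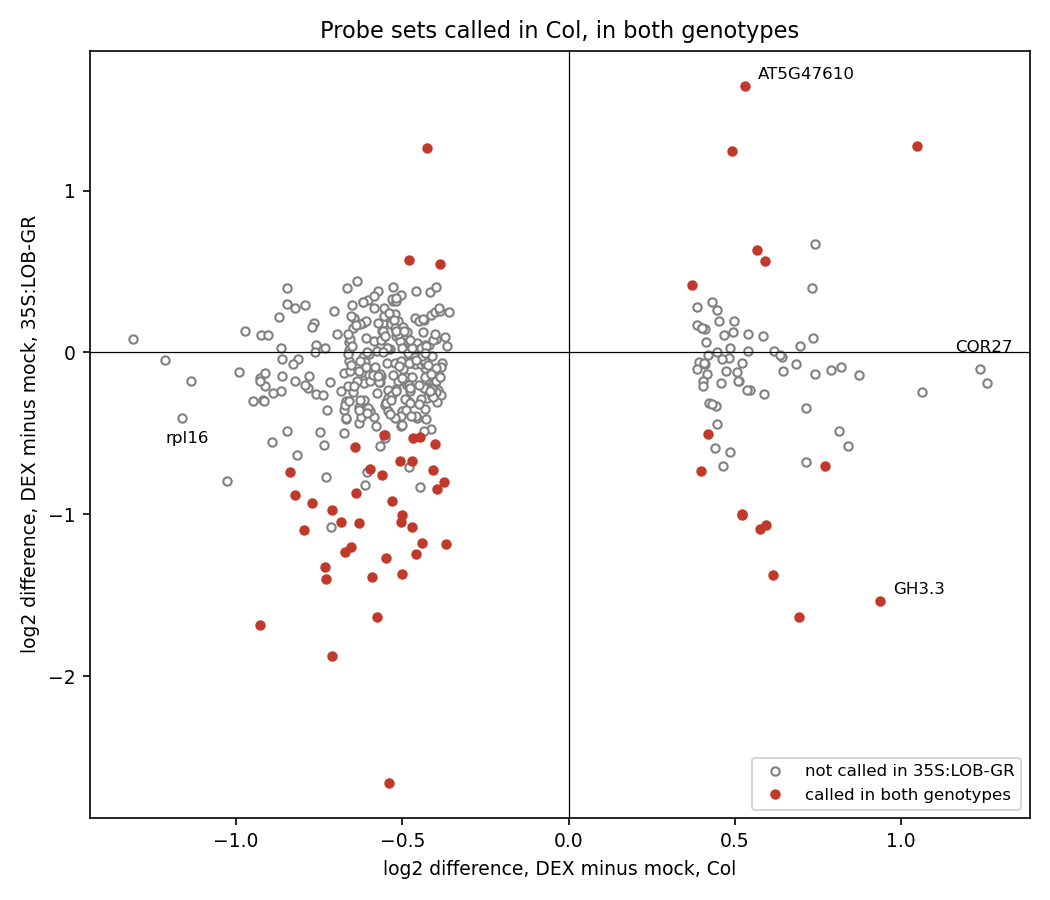
Log2 difference, DEX minus mock, of the 407 probe sets called in Col: their response in 35S:LOB-GR (y axis) against that in Col (x axis), with the 57 called in both genotypes in red and the others open. No points lie near 0 on the x axis because the Col call chose them; on the y axis both the Col rises and the Col falls centre slightly below 0, at medians of -0.10 and -0.14.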

How the data were processed

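Total RNA of whole seedlings was labelled with biotin and read on one-colour Affymetrix arrays, per the labels' protocols. The deposited values are the authors' log2 signals, with 1 value for each probe set on each array. Per the submitters' processing notes they come from RMA, whose version is, like any genome build, not given in the sources used here. That method gives all arrays a near-common distribution, which reduces a shift of most genes in one direction, and no detection calls were used. Array medians ran from 5.88 to 5.94, and the number of arrays limits the precision.

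The 6 Col arrays were fitted alone with limma 3.58.1 in R 4.3.3 (lmFit, eBayes, 4 residual and 7.93 prior degrees of freedom), two-sided, without a block, with Benjamini-Hochberg adjustment over 22746 probe sets; 64 Affymetrix controls were left out. The difference between the genotypes was fitted over all 12 arrays. Control probe sets were compared by exact permutation. P-values measure the spread between these samples. On simulated data with 200 changed probe sets there were 2 false calls. The simulated noise was normal and independent between probe sets, with no effect shared across an array. The false calls and the shares recovered therefore do not cover such effects.

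Of the probe sets, 13513 had 1 gene in the platform annotation, and 13436 of these matched RefSeq (TAIR10.1), used for names and gene order. In the lists the brightest probe set stood for a gene. Genes were named by a rule: the 14 largest rises and 14 largest falls among called single-gene probe sets whose groups did not overlap, and, for lists, up to 5 called members or the 2 of largest change. The members, lists and tests were chosen with earlier results of these data known, and the peroxidase, kinesin, heat shock and plastid lists after the values were seen. Genes beyond the rule, such as rpoA, rpl36, STZ, WES1, IAA29 and PYK10, and called members past the first 5 of the kinesin, peroxidase and plastid lists, were also added after values were seen.

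Same-numbered DEX and mock arrays deviated together with correlations of 0.04, 0.03 and 0.09. Alternatives changed the arrays fitted, normalization, dim filter, spread estimate, array weights, threshold and replicates.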

Additional observations from a re-analysis of the deposited data

Results flagged for a closer look

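The DEX response of 16 genes named by the rule or added beside it differed between the genotypes by the test of the difference over all 12 arrays (limma, Benjamini-Hochberg over all probe sets, 35S:LOB-GR response minus Col response, log2). Over all probe sets, 4.77% were called by this test. The responses of AT2G38800, AT3G57930 and PDF2.5, named under the other observations, were also called as different and are not among the 16. Lower in 35S:LOB-GR were the responses of EXPA8 by -2.73 (adjusted p = 0.00015), GH3.3 by -2.47, AT5G02540 by -1.39 (adjusted p = 0.016), COR27 by -1.34, Hsp70-2 by -1.16 (adjusted p = 0.0061), WES1 by -1.11 (adjusted p = 0.0061), AT3G09440 by -0.73, AT3G26922 by -0.69 (adjusted p = 0.036) and AT5G66330 by -0.59 (adjusted p = 0.040). Higher there were the responses of BRL1 by 1.23 (adjusted p = 1.9e-05), AT5G47610 by 1.12 (adjusted p = 0.012), rpl14 by 0.96, AT2G23120 by 0.81, BAT1 by 0.79 (adjusted p = 0.0014), NRPA1 by 0.63 and AT2G36200 by 0.59. EXPA8, WES1, BRL1 and BAT1 were not called in Col: their responses were -2.06, -0.70, 1.29 and 0.77 in 35S:LOB-GR, where all 4 were called, against 0.67, 0.41, 0.05 and -0.02 in Col. The Col arrays enter both the Col response and this difference.

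For the HSP70 genes, Hsp70-2 read 7.98, 7.28 and 7.62 with DEX and 8.03, 8.48 and 8.46 in mock in 35S:LOB-GR, and AT3G09440 read 11.02, 10.72 and 10.85 with DEX and 11.02, 11.34 and 11.17 in mock. In 35S:LOB-GR the fit gave -0.70 and -0.31 and called neither (adjusted p = 0.051 and 0.19), while both were called higher with DEX in Col.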

How the results depend on the processing

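The number of Col calls depended on single arrays and on the spread estimate. Leaving out 1 Col array gave 24 to 540 calls, against 407 with all 6. With all 12 arrays in the fit there were 13, with an intensity trend 617, at an adjusted p under 0.01 there were 28, and with at least a 1.5-fold change 158. Subtracted array medians gave 325, a new quantile normalization 334, leaving out probe sets below the 25th percentile of level 464, robust estimation 407 and array weights 588. Same-numbered arrays deviated together only weakly by the measured correlations, which does not show that they were unpaired. With replicate as a block there were 529 calls in Col, against 407 without it. In 35S:LOB-GR the block gave 1081 calls, against 1500, and for the difference of the responses 804, against 1085. Of 59 called named genes, 7 stayed called with all 12 arrays, 51 with array medians subtracted, 58 with the block and 8 to 51 with 1 array left out. Of 240 list medians under the alternatives, 233 moved by less than the spread between replicates. The fit of all 12 arrays and the replicate block leave the log2 differences unchanged, so the medians under them could not move. For the difference of the responses, calls ranged over 724 to 937 with 1 Col array left out, against 1085; for 35S:LOB-GR they ranged over 982 to 1702, against 1500, in refits chosen after seeing the data. The actin 3' minus 5' difference between DEX and mock stayed within -0.44 and -0.34, ubiquitin within -0.13 and -0.06 and GAPDH within -0.15 and 0.03, with 1 array left out. Low signals such as that of AT2G37420 limit what small changes can be seen.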

Other observations

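Nuclear genes outside the groups above also held some of the steadier falls, picked here after their values were seen. AT2G23120, a gene of the late embryogenesis abundant type, stood at 9.52, 9.56 and 9.62 in DEX and 10.20, 10.23 and 10.19 in mock, a difference of -0.64 ± 0.08 (limma adjusted p = 0.0068) that stayed called with any 1 array left out. In 35S:LOB-GR its response was 0.17, and the difference between the genotypes was 0.81 (adjusted p = 0.0041). Other single-gene probe sets called in all 6 refits were those of AT2G38800 (-0.85), AT3G57930 (-0.81), AT1G70200 (-0.76), PDF2.5, a plant defensin (-0.66), and CRR41, needed to assemble the plastid NADH dehydrogenase-like complex (-0.65).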
